A study of Homo sapiens with 96 samples.

Results

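Nuclear nascent RNA was set against the input RNA of the same nuclei, gene by gene, in hTERT-RPE1 cells. This established human line comes from retinal pigment epithelium and was immortalised by expressing telomerase. Nascent RNA and input RNA were sequenced from nuclei in 6 groups. In 5 of them cells were sampled in windows (T0-2, T2-4, T4-6, T6-8 and T8-10) after synchronisation with 400 uM mimosine for 22 h. The other group was asynchronous cells (Async). The mimosine protocol is given alike for all these libraries, and only the name marks Async as not synchronised. Each group had 2 libraries of each kind, numbered 1 and 2, which gave 12 pairs of a nascent and an input library with the same group and number. No source used here gives the unit of the window numbers, the way nascent RNA was captured or the selection of RNA for the libraries. The labels do not say whether the 2 numbers stand for separate cultures. If they do not, the p-values reflect technical spread among libraries and nothing more. A gene was included when it reached 0.5 RPKM (reads scaled to gene length and library size) in at least 2 columns of both nuclear tables, and 9299 of the 16651 genes listed in both tables did so. Of these 9299 genes, 8452 are protein-coding, 311 are lincRNAs, 225 are antisense RNAs and 8 are small nuclear RNAs (snRNAs).

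As background, a nascent fraction is meant to hold RNA that was made shortly before the cells were taken, while the input holds all RNA of the same preparation. RNAs that are made steadily and last long, such as the snRNAs of the spliceosome, are therefore expected to take a smaller share of a nascent fraction than of its input. Replication-dependent histone mRNAs, which supply the core proteins of nucleosomes during S phase, are another special class: they end in a stem-loop in place of a poly(A) tail and are broken down when DNA synthesis stops.

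For each gene and pair the measure was log2((nascent RPKM + 0.25)/(input RPKM + 0.25)), centred on the median gene of that pair, and it is called the ratio below. A ratio of 0 is that of the median gene, and 1 unit is a 2-fold difference. A negative ratio means a lower nascent level relative to input than that of the median gene, not less RNA in absolute terms. On this scale differences of weak genes are understated. The deposited values of 1 gene are scaled per kilobase of its whole span, so levels of different genes are comparable only per length of gene, introns included.

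MALAT1 and NEAT1, lncRNAs that stay in the nucleus, checked the nuclear label. MALAT1 had a median of 720 RPKM in nuclear nascent, 708 in nuclear input, 130 in whole-cell nascent and 160 in whole-cell input libraries. NEAT1 had 77.0 RPKM in nuclear nascent, 62.8 in nuclear input, 17.1 in whole-cell nascent and 33.9 in whole-cell input libraries. Each table was scaled on its own. Library sizes ran from 12.8 M to 29.04 M reads in the nascent and from 8.38 M to 19.6 M reads in the input libraries.

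Some libraries stood apart before any gene was looked at. On the first principal component of the 24 nuclear libraries (34.4% of the variance), the T8-10 nascent library numbered 2 lay at 40.6 and the 11 other nascent libraries between -36.6 and 2.0. The input libraries numbered 2 lay between 26.8 and 37.0, and those numbered 1 between -21.4 and -1.0. On this component the library labelled T8-10 nascent number 2 thus lay with the inputs of its number and not with the nascent libraries. In T8-10 the deviations of the nascent libraries from their group mean correlated with those of the same-numbered inputs at 0.70 across genes, against -0.31 to 0.18 in the 5 other groups. In the T8-10 nascent library numbered 2 the snRNA gene RNU4-2 had 519 RPKM, its highest level among nascent libraries. The inputs of that number were far higher, at 27360.4 to 66556 RPKM. Whether this library holds nascent RNA cannot be told from these files. Each mean over 12 pairs, each count of 12 pairs and each T8-10 value therefore depends on its label. In the T8-10 pair numbered 2, nascent and input levels correlated with Pearson's r = 0.974 across genes, and 99.4% of the ratios were within 2-fold of the pair's median gene. In the 5 other pairs numbered 2, r was 0.808 to 0.894 and 85.4% to 94.4% of the genes were within 2-fold. In the 6 pairs numbered 1, r was 0.903 to 0.976 and 96.1% to 99.3% were. Values are therefore given for all 12 pairs, for the 6 pairs of each number, and without the T8-10 pair numbered 2 where that moved a value. The split by number was made after the data were seen.

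Because some contrasts below are between neighbouring histone genes, the stretches in front of some of them are shown first. Each is the RefSeq window (GRCh38.p14) from 250 bases before to 50 after the start of the gene. HIST1H2AD (chr6:26199244-26199543, minus strand) and HIST1H2BF (chr6:26199266-26199565, plus strand) start 223 bases apart and point away from each other, so their windows show the same stretch on opposite strands. In RefSeq the H3 gene HIST1H3D has the same start as HIST1H2AD. HIST1H2AB (chr6:26033569-26033868, minus strand), HIST2H2AC (chr1:149886668-149886967, plus strand) and HIST2H3D (chr1:149813644-149813943, minus strand) are 3 of the histone genes with the lowest ratios. Capitals mark 3 motifs, each as written or as its reverse complement. They are the CCAAT box, spelled CCAAT. The TATA box was searched as TATAAA. The octamer was searched as ATTTGCAT.
HIST1H2AD: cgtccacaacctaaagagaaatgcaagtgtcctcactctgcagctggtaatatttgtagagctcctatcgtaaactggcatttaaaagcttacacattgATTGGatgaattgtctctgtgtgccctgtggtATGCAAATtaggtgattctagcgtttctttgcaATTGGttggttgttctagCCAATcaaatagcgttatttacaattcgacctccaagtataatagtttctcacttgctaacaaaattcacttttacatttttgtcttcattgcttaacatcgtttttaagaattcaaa
HIST1H2BF: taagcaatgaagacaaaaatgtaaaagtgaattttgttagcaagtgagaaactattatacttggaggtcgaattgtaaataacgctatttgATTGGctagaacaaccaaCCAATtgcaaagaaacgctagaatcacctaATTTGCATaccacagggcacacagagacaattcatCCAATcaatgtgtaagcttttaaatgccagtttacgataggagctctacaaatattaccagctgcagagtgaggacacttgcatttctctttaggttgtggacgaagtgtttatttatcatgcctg
HIST1H2AB: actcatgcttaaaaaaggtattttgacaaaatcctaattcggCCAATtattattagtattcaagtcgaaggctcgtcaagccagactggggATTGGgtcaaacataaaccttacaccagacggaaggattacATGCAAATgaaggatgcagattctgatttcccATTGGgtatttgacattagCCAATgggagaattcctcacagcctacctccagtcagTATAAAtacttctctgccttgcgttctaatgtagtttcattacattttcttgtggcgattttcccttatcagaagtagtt
HIST2H2AC: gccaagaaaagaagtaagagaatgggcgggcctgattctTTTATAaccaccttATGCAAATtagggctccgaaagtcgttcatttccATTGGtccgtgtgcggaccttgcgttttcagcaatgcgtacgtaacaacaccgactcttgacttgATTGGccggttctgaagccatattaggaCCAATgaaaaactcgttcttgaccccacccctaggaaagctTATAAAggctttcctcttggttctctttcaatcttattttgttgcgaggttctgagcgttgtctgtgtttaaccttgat
HIST2H3D: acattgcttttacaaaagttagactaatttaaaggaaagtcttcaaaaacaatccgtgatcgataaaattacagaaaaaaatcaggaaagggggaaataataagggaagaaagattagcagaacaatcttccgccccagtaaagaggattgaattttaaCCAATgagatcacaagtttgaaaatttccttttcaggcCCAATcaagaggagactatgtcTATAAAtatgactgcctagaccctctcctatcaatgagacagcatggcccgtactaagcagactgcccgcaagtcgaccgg

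Such windows were found for 39 of the 45 replication-dependent histone genes compared. CCAAT, read by the factor NF-Y, stood in 10 of 10 H2A and 14 of 14 H2B windows, against 35.7% of the 27305 windows of all RefSeq genes. The octamer, read by POU factors such as OCT1, stood in 8 of 10 H2A and 10 of 14 H2B windows, against 1.8% of all. It stood in 1 of 5 H3 windows and in 0 of 5 H4 and 0 of 5 H1 windows. TATAAA stood in 8 of 10 H2A and 11 of 14 H2B windows, against 12% of all. The windows of HIST1H2AD and HIST1H2BF do not hold it. The shares of H2A and H2B windows were similar, but largely because of how they were counted. In 8 pairs of neighbours the windows of an H2A and an H2B gene overlap, and motifs were counted on either strand. The shares therefore give no separate comparison of H2A and H2B genes, which differ in their ratios below.

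Averaged over the 12 pairs, most genes had a ratio near that of the median gene. Such a mean can hide opposite shifts in the 2 numbers, which are described below. In single pairs numbered 2, T8-10 left out, 85.4% to 94.4% of the genes were within 2-fold. The mean ratio over the 12 pairs was at or below -1 for 50 genes (0.538%) and at or above 1 for 5 genes (0.0538%). In limma's test of the mean ratio over all 6 groups, 0 of 9299 genes passed a Benjamini-Hochberg adjusted p of 0.05 in either direction. This fit held group means alone, so differences between the 2 numbers counted as spread. The count of 0 therefore does not show that no gene differs, and a fit with the number as a block is given with the other settings below. At an unadjusted p under 0.05 there were 1357 genes, 413 with a higher and 944 with a lower ratio than the median gene. The smallest adjusted p, 0.0554, belonged to HIST1H2AB. The ratio was below 0 in all 12 pairs for 49 genes (0.527%) and above 0 in all 12 for 41 genes (0.441%). Over the 11 pairs other than T8-10 numbered 2, 164 genes (1.76%) were below 0 in each and 78 (0.839%) above.

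The 2 numbers differed in how nascent and input RNA compared. Deviations of same-numbered input libraries from their group means correlated at 0.64 to 0.88 across genes in all 15 pairs of groups. A fit within 1 number takes its 6 groups as replicates of each other. Its p-values, here and below, therefore measure steadiness within that number and not replication between numbers. Tested as 6 pairs each, number 1 gave 489 genes called higher (5.26%) and 618 called lower (6.65%) in nascent RNA. Number 2 gave 919 called higher (9.88%) and 1873 called lower (20.1%), and 2031 higher (21.8%) and 2541 lower (27.3%) without its T8-10 pair. Across genes, the mean ratios of the 2 numbers had Pearson's r = -0.06 and Spearman's rho = -0.28, given as a description. In both numbers 89 genes were called lower (0.957%), 8 were called higher (0.086%) and 180 were called in opposite directions (1.94%). Without the T8-10 pair numbered 2, 105 genes were called lower (1.13%) and 13 higher (0.14%) in both numbers. Calls in opposite directions (180 genes) outnumbered calls lower (89) or higher (8) in both numbers. Fewer genes were called lower in both, or higher in both, than if calls in the 2 numbers were unrelated. Calls in opposite directions were only slightly more than unrelated calls would give. The genes described next are mainly those that went one way in both numbers. This served to choose genes and is not taken as replication between the numbers.

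The 3 lowest mean ratios over the 12 pairs, among all genes compared, belonged to snRNAs of the spliceosome. Of the 8 snRNAs compared, these 3 were called lower in both numbers, against 0.957% of all genes, and the median of the 8 was -1.34. RNU4-2 and RNU4-1 are genes of U4, the snRNA that holds U6 inactive until the spliceosome is activated. RNU4-2 had 12.4 to 76.6 RPKM in nascent libraries numbered 1, against 39.5 to 234 RPKM in input libraries numbered 1. In those numbered 2 it had 26.3 to 519 RPKM in nascent, against 27360.4 to 66556 RPKM in input. The input was higher than the nascent level in each of the 12 pairs, and the input libraries of the 2 numbers did not overlap. The mean ratio of RNU4-2 was -5.38 ± 1.18 (SE, 12 pairs; limma adjusted p = 0.192), with -1.85 in number 1 (adjusted p = 0.00651) and -8.91 in number 2 (adjusted p = 5.71e-05). RNU4-1 had -5.09 ± 1.19 (limma adjusted p = 0.202), with -1.59 in number 1 and -8.59 in number 2. The rank of the U4 genes rests on number 2. In number 1 both lay above histone genes such as HIST1H4D (-2.05) and HIST2H3D (-2.01). As near-identical copies, the 2 U4 genes have uncertain single values.

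RNU5E-1 is a gene of U5, the snRNA that aligns the exons for joining. It had 0 to 9.13 RPKM in nascent libraries, with a median of 4.11, against 12.8 to 401 RPKM in input libraries, with a median of 112. The 2 kinds of library did not overlap, and the nascent T0-2 library numbered 2 was listed at 0. Its mean ratio was -4.68 ± 0.71 (SE, 12 pairs; limma adjusted p = 0.104), with -2.76 in number 1 and -6.60 in number 2. RNU5D-1, another U5 gene, had a mean ratio of -1.67, lower in 8 of 12 pairs and called in number 2 alone. The 4 other snRNAs had mean ratios between -1.01 and -0.68 and were called in at most 1 number. They did not go one way: RNVU1-19, a variant U1 gene, had 0.43 in number 1 and -2.33 in number 2, and RNVU1-6, another, had -1.66 in number 1 and 0.23 in number 2.

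**Figure D1:**
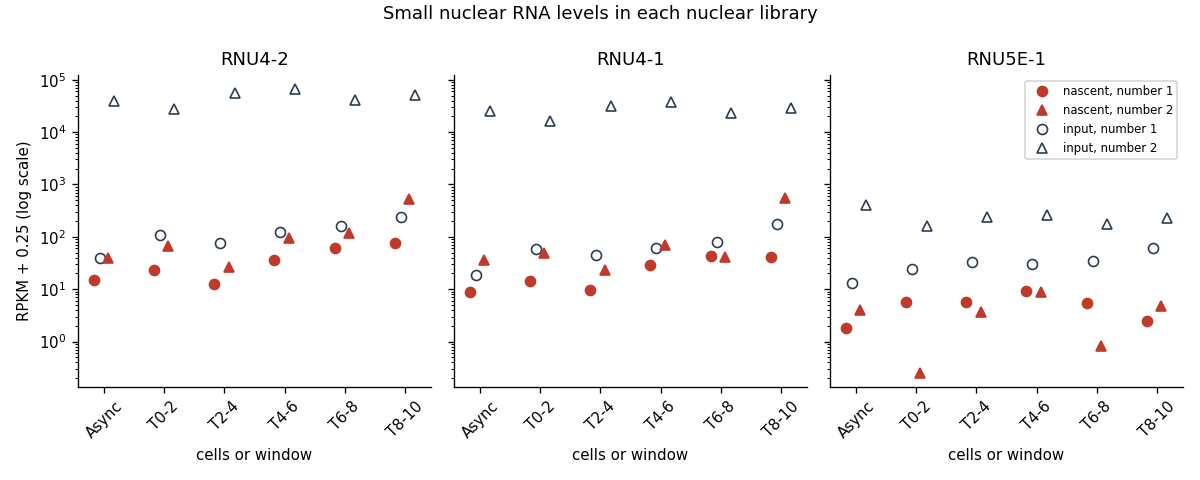
RPKM + 0.25 on a log axis of 3 snRNA genes in each nuclear library, by group; filled symbols are nascent and open symbols input libraries, circles number 1 and triangles number 2. Input exceeds nascent in every pair, and the input triangles of RNU4-2, from 27360.4 to 66556 RPKM, stand far above the input circles, from 39.5 to 234 RPKM.

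Other short RNAs without a poly(A) tail differed by less. RN7SL2 and RN7SL3 encode 7SL, the RNA of the signal recognition particle. RN7SL2 had 508 to 2893 RPKM in nascent libraries, with a median of 1009, against 1112 to 3839 RPKM in input libraries, with a median of 1646. It was lower in 11 of 12 pairs, with a mean ratio of -0.70, or 0.13 under quantile normalization of the libraries. It passed in neither number (limma adjusted p = 0.0544 in number 1 and 0.115 in number 2). RN7SL3 had a mean ratio of -1.52, called lower in number 1 (-0.74) and number 2 (-2.29). The 7SL pseudogenes RN7SL767P and RN7SL396P, with -1.56 and -1.27, and the small nucleolar RNA SNORD114-10, with -1.14, were called lower in both numbers. RF00100, the name in the files for copies of 7SK, the RNA that holds back the elongation factor P-TEFb, went apart from them. It had 1118 to 3680 RPKM in nascent libraries, against 608 to 5404 in input libraries. Its ratio was -0.67 in number 1 (adjusted p = 0.0586) and 1.28 in number 2 (adjusted p = 0.0171). Of 17 listed short RNAs without a tail, 8 passed the filter on levels. Their median ratio was -1.41 and 4 of the 8 were called lower in both numbers. The U4 genes RNU4-2 and RNU4-1, described above, are among these 4, so the list is not a separate set.

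Replication-dependent histone genes were the largest group of protein-coding genes with low ratios. Of 48 listed, 45 were compared, 14 were called lower in both numbers and 2 higher, against 0.957% and 0.086% of all genes; without the T8-10 pair numbered 2 these counts were 15 and 3. Their median ratio was -0.44 over 12 pairs, -0.52 in number 1 and -0.42 in number 2, against 0.00 over all genes. With quantile normalization of the libraries it was -0.19. Many histone genes are near-identical copies, which makes the value of a single gene uncertain.

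The classes differed. The 11 genes of H2A, the core histone that pairs with H2B, had a median ratio of -1.10, and 6 were called lower in both numbers and 0 higher. The 7 H4 genes had a median of -0.98 with 5 called lower in both numbers, and the 8 H3 genes -0.61 with 3. The 5 genes of the linker histone H1 had a median of -0.22 with 0 called in both numbers, and under quantile normalization their median was 0.19. The 14 H2B genes had a median of 0.13, with 0 called lower and 2 called higher in both numbers. H2A medians ran from -1.76 to -0.14 over the 12 pairs and H2B medians from -0.55 to 0.82. The H2A median was below the H2B median in 12 of 12 pairs, including the T8-10 pair numbered 2. The replication-independent histone gene H2AFX, which encodes the variant H2A.X, had a ratio of -0.50 and was called in neither number.

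**Figure D2:**
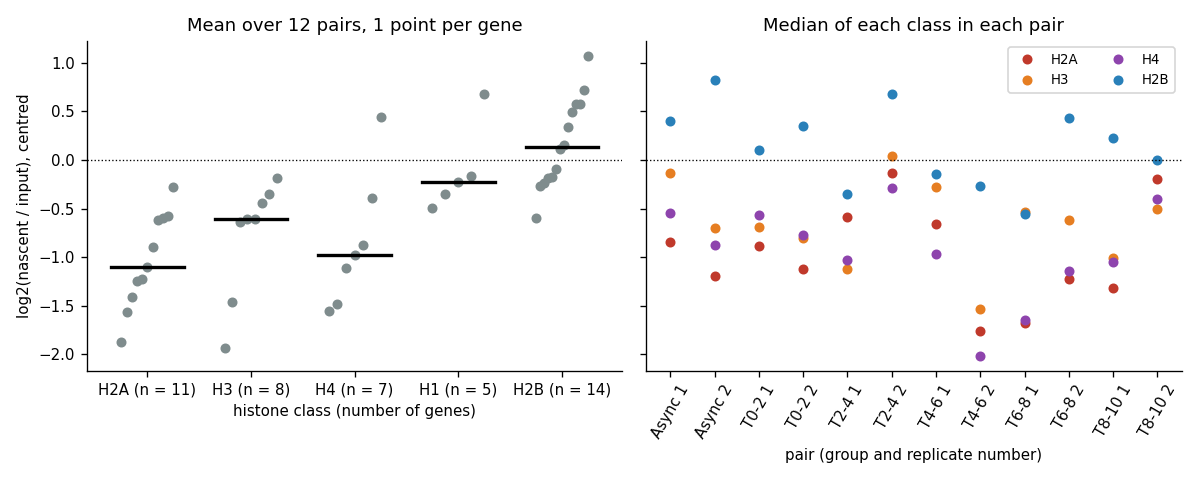
Left, mean ratio over 12 pairs of each replication-dependent histone gene by class, with the class median as a bar; right, the median ratio of 4 classes in each pair. H2A genes centre on -1.10 and H2B genes on 0.13, and the H2A median lies below the H2B median in each of the 12 pairs.

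HIST1H2AB, whose window is shown above, had 3.09 to 55.9 RPKM in nascent libraries, with a median of 15.9, against 10.4 to 135 RPKM in input libraries, with a median of 71.7. Nascent RNA was lower in each pair although the ranges of the 2 kinds overlap. Its mean ratio was -1.87 ± 0.20 (SE, 12 pairs; limma adjusted p = 0.0554), -1.90 in number 1 (adjusted p = 0.0133) and -1.84 in number 2 (adjusted p = 0.017). HIST2H2AC, an H2A gene of the chromosome 1 cluster, had 8.68 to 97.1 RPKM in nascent libraries, with a median of 33.1, against 33.9 to 231 RPKM in input libraries, with a median of 132. It was lower in 12 of 12 pairs, with a mean ratio of -1.56 ± 0.22 (limma adjusted p = 0.104). HIST2H2AB (-1.41), HIST3H2A (-1.23), HIST1H2AH (-1.10) and HIST1H2AC (-0.60) were the other H2A genes called lower in both numbers. All but HIST3H2A, at 11, were lower in 12 of 12 pairs.

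HIST2H3D, an H3 gene, had 0.874 to 18.1 RPKM in nascent libraries, with a median of 4.15, against 3.12 to 37.8 RPKM in input libraries, with a median of 21.6. Its mean ratio was -1.93 ± 0.29 (SE, 12 pairs; limma adjusted p = 0.104), the lowest of the protein-coding genes described here, and it was lower in 12 of 12 pairs. The H3 genes HIST1H3H (-1.46) and HIST1H3J (-0.44) were also called lower in both numbers. HIST1H4C, an H4 gene, had 30.02 to 179.9 RPKM in nascent libraries, with a median of 63.5, against 80.9 to 340 RPKM in input libraries, with a median of 221. Its mean ratio was -1.49 ± 0.24 (limma adjusted p = 0.106), and it was lower in 12 of 12 pairs. HIST1H4D (-1.56), HIST1H4B (-1.11), HIST1H4A (-0.98) and HIST1H4E (-0.88) were also called lower in both numbers, and so was HIST4H4 (-0.82), an H4 gene outside the main clusters.

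HIST1H2BF went the other way. It had 7.57 to 82.0 RPKM in nascent libraries, with a median of 44.9, against 4.75 to 42.9 RPKM in input libraries, with a median of 20.5. Nascent RNA was higher in 11 of 12 pairs. The mean ratio was 1.07 ± 0.18 (SE, 12 pairs; limma adjusted p = 0.116), with 1.41 in number 1 (adjusted p = 0.0137) and 0.74 in number 2 (adjusted p = 0.0628). HIST3H2BB (0.72) and HIST1H2BN (0.58) were the 2 H2B genes called higher in both numbers, both at low levels: HIST3H2BB had a median of 1.25 RPKM in nascent and 0.665 RPKM in input libraries. The gene model of HIST1H2BN spans 28039 bp, far more than a histone coding sequence. HIST1H2BK (0.49) was called higher in number 2 and not in number 1. HIST1H2BL (-0.59) was lower in 12 of 12 pairs and called in number 1.

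Many H2A and H2B genes lie as neighbours that start close together and are transcribed away from each other, so a pair of genes shares 1 stretch of DNA in front. Among the genes compared there were 8 such pairs, with starts 223 to 248 bases apart. The mean ratio of the H2A gene was below that of its H2B neighbour in 8 of 8, by 0.36 to 1.97 on the log2 scale. HIST1H2AD had a mean ratio of -0.90 and HIST1H2BF, its neighbour in the windows printed above, 1.07. HIST1H3D, which shares the start of HIST1H2AD, had -0.61. HIST1H2AD had 5.67 to 134.5 RPKM in nascent libraries, with a median of 50.9, against 19.5 to 159 RPKM in input libraries, with a median of 104. HIST1H2AD was below HIST1H2BF in 12 of 12 pairs, as were HIST3H2A (-1.23) below HIST3H2BB (0.72) and HIST2H2AC (-1.56) below HIST2H2BE (0.15). HIST1H2AJ (-0.62) was below HIST1H2BM (0.58) in 11 of 12 pairs, and HIST1H2AG (-0.58) below HIST1H2BJ (-0.09, or 0.09 under quantile normalization) in 11. HIST1H2AE (-0.28, or 0.20 under quantile normalization) was below HIST1H2BG (0.33) in 10, HIST1H2AI (-1.25) below HIST1H2BL (-0.59) in 9 and HIST1H2AC (-0.60) below HIST1H2BC (-0.24) in 7. Within number 1 alone the H2A gene was lower in 7 of 8 neighbour pairs, and within number 2 in 8 of 8, or 7 of 8 without T8-10.

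The gene models of some neighbours are long, and their levels per length are not those of a histone mRNA alone. The model of HIST2H2BE spans 44449 bp, that of HIST1H2AC 14972 bp, that of HIST1H2BC 9054 bp and that of HIST1H2BJ 6854 bp. The models of HIST1H2AD and HIST1H2BF span 393 and 381 bp, and those of HIST1H2AJ and HIST1H2BM 387 and 381 bp.

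**Figure D3:**
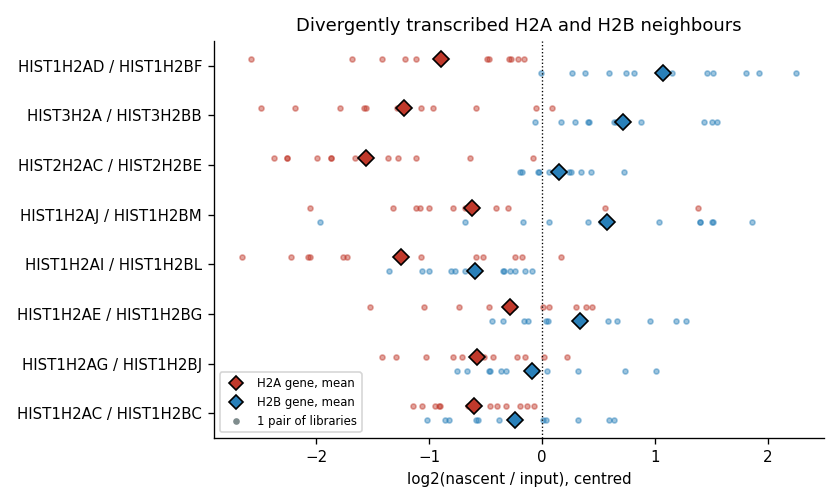
Ratios of 8 divergent H2A and H2B neighbour pairs, H2A in red above H2B in blue; small points are the 12 pairs of libraries and diamonds their mean. Each H2A mean lies left of its H2B neighbour, and HIST1H2AD and HIST1H2BF are farthest apart, at -0.90 and 1.07.

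Outside the histones, the coding genes called lower in both numbers are described singly, since they were picked after their values were seen and form no tested class. Of the listed cytoskeleton and annexin genes 1 of 23 was called lower in both numbers, and of the extracellular matrix genes 0 of 21. AGRN, which encodes the matrix proteoglycan agrin, had 2.02 to 20.1 RPKM in nascent libraries, with a median of 3.49, against 5.92 to 21.2 RPKM in input libraries, with a median of 12.2. The nascent level of 20.1 RPKM was that of the T8-10 library numbered 2, and the 11 others reached at most 6.14 RPKM. The mean ratio of AGRN was -1.45 ± 0.32 (SE, 12 pairs; limma adjusted p = 0.189), -0.80 in number 1 and -2.10 in number 2. LMNA, the gene of lamins A and C, had -0.78, the actin crosslinkers FLNA and FLNC -0.76 each, and LGALS1, a galectin, -0.89. CD63, a tetraspanin of endosomes, had -0.70 and MARCKS, a membrane and actin binder, -0.59. Each of these 7 genes was called lower in both numbers, in at least 11 of 12 pairs.

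ADRM1, a ubiquitin receptor of the proteasome, had 2.61 RPKM on average in nascent and 6.21 RPKM in input libraries. Its mean ratio was -1.19, with -0.70 in number 1 and -1.68 in number 2; it was called lower in both and lower in 12 of 12 pairs. PSMC3, an ATPase of the proteasome base, had a mean ratio of -0.74 and was also called lower in both. Among proteasome subunit genes as a list, 1 of 24 was called lower in both numbers and the median was -0.11. CCT7, a chaperonin subunit, had -0.53. It was the 1 of 25 heat shock and chaperone genes called lower in both numbers, against 0.957% of all genes. In number 1 that list had a median of -0.28, with 8 called lower and 2 higher, against 6.65% and 5.26% of all genes. In number 2 its median was 0.06, with 3 called lower and 4 higher, against 20.1% and 9.88% of all genes.

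IER5, an immediate early gene, had -0.80, GADD45A, a stress-induced growth arrest gene, -0.67 and CDKN1B, the gene of the cyclin-dependent kinase inhibitor p27, -0.61. KHSRP, an RNA-binding protein that promotes mRNA decay, had -0.78 and HINT1, a nucleotide hydrolase, -0.58. These 5 genes were called lower in both numbers. PFKL, the liver form of phosphofructokinase, had -1.02 and was the 1 of 17 glycolysis genes called lower in both numbers. MRPL41 (-0.99), a mitochondrial ribosomal protein gene, and CALR (-0.59), the gene of calreticulin, were lower in 12 of 12 pairs but passed in number 2 alone.

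Genes called higher in both numbers were few and mostly differed by less. AC018638.4, a processed pseudogene, had 1.06 to 4.63 RPKM in nascent libraries, with a median of 2.999, against 0.545 to 1.94 RPKM in input libraries, with a median of 1.14. Its mean ratio was 1.27 ± 0.19 (SE, 12 pairs; limma adjusted p = 0.104), 1.25 in number 1 and 1.30 in number 2. The antisense RNA AC097461.1 (0.68), DNASE2, a lysosomal nuclease gene (0.45), C14orf119 (0.43) and ABCF2, an ATP-binding cassette gene (0.29), were also called higher in both numbers, as were HIST3H2BB and HIST1H2BN. OST4, a small subunit of oligosaccharyltransferase, had 4.05 to 7.96 RPKM in nascent libraries, against 1.92 to 6.74 RPKM in input libraries. It was higher in 12 of 12 pairs with a mean ratio of 0.76 ± 0.16 (limma adjusted p = 0.189), but passed in number 2 alone. SAP18, a splicing cofactor (0.33), SSR2, a subunit of the translocon-associated complex (0.30), BAG3, a co-chaperone (0.25), HJURP, the chaperone of centromeric histone H3 (0.19), and the lincRNA AC006058.1 (0.41) were higher in 12 of 12 pairs and called in at most 1 number.

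Lists of other gene classes mostly had medians near that of all genes. Their counts are to be read against the shares of all genes, of which 6.65% were called lower and 5.26% higher in number 1, and 20.1% lower and 9.88% higher in number 2. Glycolysis genes had the lowest median, -0.28 (-0.29 in number 1 and -0.43 in number 2, and -0.09 under quantile normalization), with 3 of 17 called lower in number 1 (6.65% of all genes) and 5 of 17 in number 2 (20.1% of all genes). PKM, the pyruvate kinase gene, had -0.49 and was called in number 2. The medians of the other lists lay between -0.18 and 0.17, and most of them changed sign between the numbers or under quantile normalization. TGF-beta, BMP and Notch response regulators had a median of -0.18 with 0 of 13 called in number 1 and 5 lower and 2 higher in number 2. MAFK, a small MAF transcription factor (-0.99), and ID1, an inhibitor of differentiation (-0.64), led them downward. The p53 targets had a median of -0.15, with 2 of 24 called lower in number 1 and 9 lower and 1 higher in number 2, among them FDXR (-0.81) and PHLDA3 (-0.69).

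Immediate early genes had a median of 0.05 over 20 genes, with 2 lower and 1 higher called in number 1 and 5 lower and 2 higher in number 2. In number 2 these counts are near the shares of all genes, 20.1% lower and 9.88% higher. EGR1, an early transcription factor gene, had a mean ratio of 0.51 and was higher in 10 of 12 pairs (0.17 in number 1, 0.86 in number 2). CTGF, a matricellular gene, had 0.59 (0.03 and 1.16), while JUND, of the AP-1 family, had -0.67 (-0.04 and -1.29). Growth factor feedback inhibitors had a median of -0.02 in number 1 and 0.40 in number 2, where 3 of 10 were called higher. DUSP5 and DUSP6, phosphatases of MAP kinases, had 0.06 and -0.03 in number 1 and 0.80 and 1.08 in number 2. NF-kB and cytokine genes had a median of 0.07 with 0 of 15 called in both numbers, CCL2, a chemokine gene, at 0.82 and NFKB2 at -0.49.

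Lists of housekeeping and structural genes had medians near 0. Cytosolic ribosomal protein genes had a median of -0.09 in number 1, with 9 of 66 called lower and 3 higher, and 0.03 in number 2, with 3 lower and 5 higher. RPL35 (-0.58) and RPS23 (-0.58) were at the low end and RPL29 (0.45) at the high end. Translation factor genes had a median of 0.04, with EIF5A at -0.67 and EIF1 at 0.54. Respiratory chain genes had a median of -0.01 over 37 genes and extracellular matrix genes 0.02 over 21. Cytoskeleton and annexin genes had -0.07 over 23, with ACTG1, the gamma-actin gene, at 0.31. Sterol synthesis genes had -0.08 over 21 and hypoxia and iron genes -0.06 over 23, with ADM, the adrenomedullin gene, at -0.73.

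The cell cycle lists differed in number 1. G1/S and replication genes had a median of 0.03 over 42 genes, with 1 lower and 3 higher called in number 1 and 8 lower and 2 higher in number 2. CDT1, a licensing factor (-0.67), and MCM2, a subunit of the replicative helicase (-0.44), were at its low end. G2/M genes had a median of -0.14 in number 1, with 15 of 43 called lower and 1 higher, against 6.65% and 5.26% of all genes. In number 2 their median was 0.17, with 7 lower and 7 higher, against 20.1% and 9.88% of all genes. Genes of SR splicing factors and CLK kinases had a median of -0.04 over 20, snoRNA host genes -0.05 over 14 (SNHG1 at 0.51) and nuclear and regulatory lncRNAs 0.03 over 19 (TUG1 at 0.44). The 249 numbered zinc finger genes had a median of 0.06, and 28 genes long on the genome 0.11. Replication-independent histone genes had -0.15 over 10. Of 14 pigment epithelium markers 4 were compared, with a median of -0.07, and of 13 markers of other cell types 0 passed the filter in both nuclear tables.

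Ratio and gene length went together differently across pairs, and the pairs numbered 1 did not all go one way. Among the 1843 shortest genes, up to 9110 bp, the median ratio was -0.01 in number 1 and -0.32 in number 2. Among the 1842 longest, from 88019 bp, it was -0.03 in number 1 and 0.18 in number 2. Spearman's rho of ratio and length across genes, as a description, was -0.22 to 0.31 in the pairs numbered 1, 0.28 to 0.47 in those numbered 2 without T8-10, and -0.25 in the T8-10 pair numbered 2. Of the 89 genes called lower in both numbers, 53 were among the 1843 shortest genes and 0 among the 1842 longest. Many of the histone and snRNA genes above are among the shortest. In number 1 the shortest genes had a median of -0.01 and the H2A genes -1.11. A closer match in length, the 5 other coding genes under 1000 bp, had a median of -0.42, with 0.07 in number 1 and -0.91 in number 2, where the H2A median was -1.21. The part that length had in the histone and snRNA ratios was not tested.

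**Figure D4:**
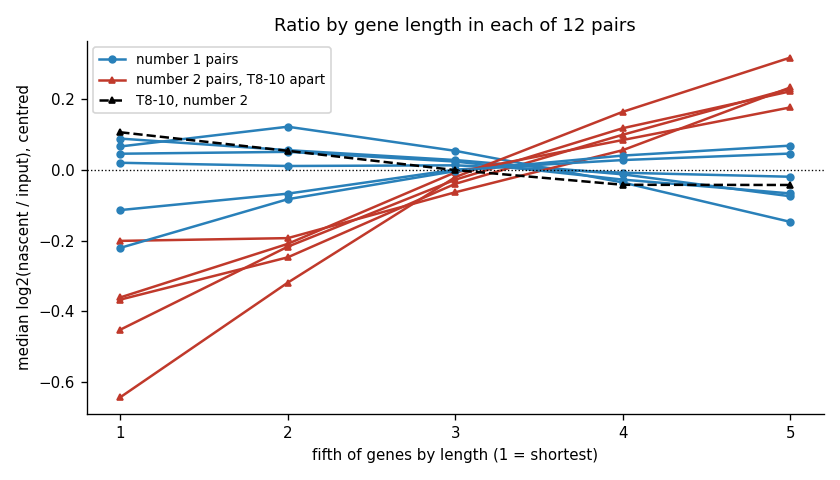
Median ratio of the genes in 5 classes of gene length of nearly equal size, from shortest to longest, with 1 line per pair. In 5 pairs numbered 2 (red) the median climbs with length, from between -0.64 and -0.20 to between 0.18 and 0.32. The 6 pairs numbered 1 (blue) and the T8-10 pair numbered 2 (black, dashed) lie between -0.22 and 0.12. Among the pairs numbered 1, T8-10 also climbs, from -0.22 to 0.07, and T6-8 from -0.11 to 0.05.

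The windows were then compared with asynchronous cells, to ask whether the balance of nascent and input RNA differs in cells passing through S phase. Mimosine and S phase cannot be told apart in this comparison. Of 9299 genes, 0 passed limma's test for the 10 window pairs against the 2 asynchronous pairs (0.0%; adjusted p of 1 for all), and 49 had an unadjusted p under 0.05, 25 higher and 24 lower. HIST1H2BB, an H2B gene, had a mean ratio of -0.37 in the windows and 0.77 in asynchronous cells, a difference of -1.14 ± 0.46 (SE). PSMB6 and PSMC5, proteasome subunit genes, had 0.08 and -0.36 in the windows, against 1.12 and 0.56 in asynchronous cells. PGD, an enzyme gene of the pentose phosphate pathway, had 0.03 in the windows and 0.56 in asynchronous cells. The test among the 5 windows also passed 0 genes (0.0%; 52 at an unadjusted p under 0.05).

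T8-10 against T0-2 gave 0 called genes (0.0%), with 33 at an unadjusted p under 0.05, 8 higher and 25 lower. HIST1H1D, a linker histone gene, had the smallest p among genes of at least 2 RPKM, a level that it did not reach at T0-2. Its ratio was -0.45 at T8-10 and 1.63 at T0-2, a difference of -2.09 ± 0.67 (SE, 2 pairs each, limma adjusted p = 0.999). At T0-2 it averaged 1.95 RPKM in nascent and 0.518 RPKM in input libraries, against 7.22 and 10.6 RPKM at T8-10. The T0-2 ratio, and with it the difference, thus rests on an input level near the pseudocount of 0.25 and is uncertain. In the order of groups the mean ratio of HIST1H1D was 1.33 in Async and 1.63 at T0-2. It was 0.77 for T2-4, 0.37 for T4-6, 0.44 for T6-8 and -0.45 for T8-10.

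HIST1H2AB is given as an example by group. Its mean input level was 44.5 RPKM in Async, then 12.8 (T0-2), 57.6 (T2-4), 133 (T4-6), 104 (T6-8) and 79.3 RPKM (T8-10). Its mean nascent level was 12.7, 3.37, 21.1, 35.8, 23.5 and 22.3 RPKM in the same order. The mean ratio of a group lay between -2.14 at T6-8 and -1.40 at T2-4. Single pairs spread more widely, from -2.98 to -1.09, with an SD between the 2 pairs of 1.21 at T4-6 and 1.34 at T8-10. Both kinds of RNA were lowest at T0-2 and highest at T4-6. HIST1H4C had mean ratios of -1.26 in Async, then -1.05 (T0-2), -1.34 (T2-4), -1.87 (T4-6), -1.92 (T6-8) and -1.48 (T8-10). HIST1H2BF had 2.03, 1.16, 1.09, 0.49, 1.10 and 0.57 in that order. Differences among these groups did not pass the tests above.

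**Figure D5:**
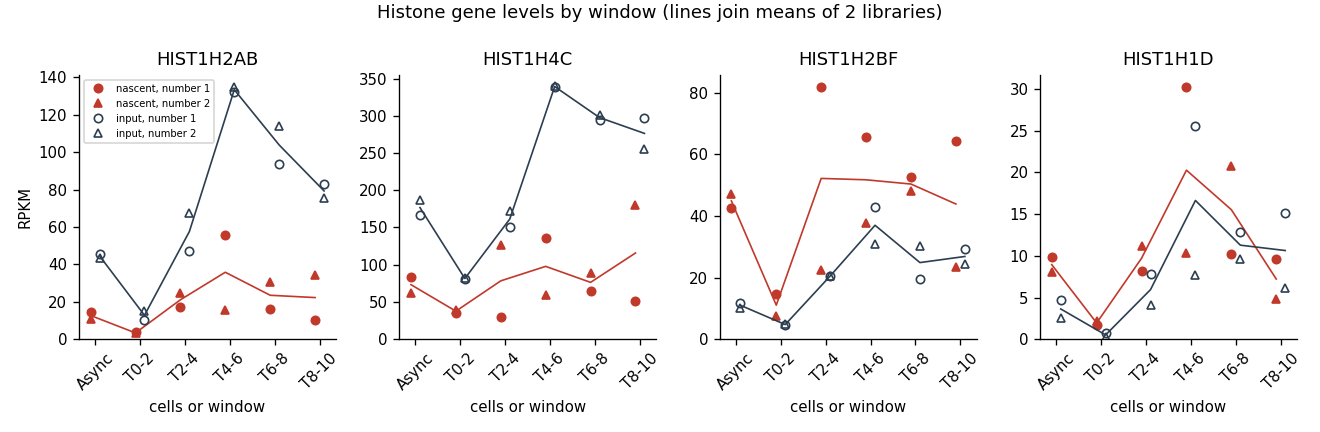
RPKM of 4 histone genes in nascent (red, filled) and input (dark, open) nuclear libraries by group; circles are number 1, triangles number 2, and lines join the means of 2 libraries. HIST1H2AB and HIST1H4C have more input than nascent RNA in every group, HIST1H2BF the reverse, and HIST1H1D has 7.22 RPKM in nascent and 10.6 RPKM in input libraries at T8-10.

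The same ratio in whole cells, from other libraries, was the closest comparison in the series. Over the 8492 genes that passed in all 4 tables, nuclear and whole-cell mean ratios had Pearson's r = 0.62 across genes, as a description. The test of the nuclear minus the whole-cell ratio passed 0 genes (0.0%; 773 at an unadjusted p under 0.05, 311 higher and 462 lower; smallest limma adjusted p 0.148). Within number 1 it called 510 genes higher (6.01%) and 865 lower (10.2%), and within number 2 it called 0 higher and 2 lower (0.0236%). The low snRNA and histone ratios were thus not shown to be particular to nuclei. RNU4-2 had -5.37 in nuclei and -1.87 in whole cells, where its SD over pairs was 3.01. HIST1H2AB had -1.86 in nuclei and -0.78 in whole cells (SD 1.23). HIST2H3D had -1.92 in nuclei and -0.41 in whole cells, an unadjusted p of 0.00375 and an adjusted p of 0.368 in limma.

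In whole cells, too, the H2B median was above the H2A median. H2A genes had a median of -1.09 in nuclei and -0.26 in whole cells, and H2B genes 0.14 in nuclei and 0.45 in whole cells. In whole cells the H2A median was -0.65 in number 1 and 0.33 in number 2, and the H2B median -0.43 in number 1 and 1.23 in number 2, below and above 0 by number but with H2B above H2A in each. The genes with the smallest p for the difference were higher in nuclei. ECM1, an extracellular matrix gene, had 0.28 in nuclei and -0.54 in whole cells, a difference of 0.82 ± 0.15 (SE; limma adjusted p = 0.148). SRRM2, a splicing coactivator gene, had 0.33 in nuclei and -0.88 in whole cells, and SF3B4, a gene of the U2 snRNP, 0.54 in nuclei and -0.12 in whole cells. SH3BGRL3 had 0.54 in nuclei and -0.76 in whole cells, MARCKSL1 0.25 in nuclei and -0.86 in whole cells, and RPLP1, a ribosomal stalk gene, 0.12 in nuclei and -0.73 in whole cells.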

How the data were processed

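Nuclear nascent and nuclear input RNA were measured in 12 libraries each, and the same in whole cells. The authors deposited RPKM values per gene; per the submitters' processing notes STAR 2.5.3, featureCounts 1.6.1, edgeR, Bowtie2 2.3.4.3, HOMER 4.10.3 and hg38 were named, with no role or order, and strand use in counting is not given there, so overlapping and antisense genes may share reads. RPKM times the deposited gene length gave whole reads (tolerance 0.05) in all libraries, which gave the library sizes. The lengths are gene spans. The 24 columns of group means were not used.

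Pairs joined libraries of 1 group and number, as the rule for the ratio sets. Ratios with a pseudocount of 0.25 were centred on each pair's median and fitted with limma 3.58.1 in R 4.3.3 (group means, eBayes with a trend, Benjamini-Hochberg over all genes, adjusted p of 0.05). Fits within 1 number took its 6 pairs as 1 group. Lengths were known for 9211 genes. Tables and figures used Python 3.11.15. Scripts were tested on simulated data.

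Members and lists were chosen with earlier results of these data known. Genes were to be named as the highest and lowest called with 1 sign in all 12 pairs, as the 2 highest and 2 lowest of each list at 2 RPKM or more, or by the 6 smallest p of each other comparison. No gene met the first part, so genes of 1 sign in 12 pairs or called in both numbers were named after their values were seen. Alternatives were other pseudocounts, filters, scalings and fits, and leaving out each pair. A few genes that met these rules are not reported here.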

Additional observations from a re-analysis of the deposited data

How the results depend on the processing

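The test of the mean ratio called 0 genes with pseudocounts of 0.1 and 1 and without centring. It called 1 with a filter at 1 RPKM, 1 with quantile normalization, 1 without the trend, 12 without joining libraries into pairs (1 higher, 11 lower), and 3770 with no filter on low values (2721 higher, 1049 lower). Leaving out 1 pair gave 0 to 5 genes, 5 without T4-6 number 1 and 1 without T8-10 number 2. The fits chosen after the data were seen called 1107 in number 1, 2792 in number 2 and 4572 in number 2 without T8-10. With the replicate number as a block 430 were called (47 higher, 383 lower). The numbers were not taken as pairing the groups. Deviations of same-numbered ratios from their group means correlated at over 0.1 in 10 of 15 pairs of groups (-0.36 to 0.80). For input libraries this held in 15 of 15 and for nascent libraries in 11 of 15. For the ratio, each pair of groups below 0.1 held T8-10, with its doubtful nascent library numbered 2 (-0.36 to -0.09). The pairs of groups without T8-10 ran from 0.48 to 0.80.

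The windows against asynchronous cells gave 0 to 1 genes on leaving out a pair (1 without Async number 1). The tests among windows and of T8-10 against T0-2 gave 0 throughout, also with the replicate block. Nuclear against whole-cell ratios gave 1 without joining pairs, 6 with the replicate block (4 higher, 2 lower), 0 to 1 on leaving out a pair, 1375 in number 1, 2 in number 2 and 80 in number 2 without nuclear T8-10.

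Of 102 genes, 94 kept their sign in each setting they were run in (98 of them passed the filter at 1 RPKM). Quantile normalization turned RN7SL2 to 0.13, HIST1H1C to 0.19, HIST1H2AE to 0.20 and HIST1H2BJ to 0.087. Number 1 alone turned RF00100 to -0.67, DUSP6 to -0.032 and RPL29 to -0.042. Number 2 alone turned HIST1H2BJ to 0.20 and HIST1H2BC to 0.16, and without T8-10 to 0.23 and 0.24. On leaving out a pair HIST1H2BJ ran from -0.18 to 0.0036 (0.0006 without Async number 1, 0.0036 without T2-4 number 1). The causes were not tested. Under quantile normalization the medians were -0.77 for H2A, -0.74 for H4, -0.32 for H3 and 0.32 for H2B genes, and H2A stayed below H2B in 8 of 8 neighbour pairs. Weak genes are limited by depth, as 1 read weighs most in short genes.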

Other observations

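Some genes passed the filter in 1 nuclear table alone and so have no ratio. In nascent RNA alone 485 genes passed, 187 of them not listed in the input table. In input RNA alone 334 passed, 75 of them not listed in the nascent table. Those of the input table were led by short RNAs: RNU5B-1, a U5 gene, averaged 18.3 RPKM, the U4 pseudogene RNU4-7P 12.04 RPKM, the small nucleolar RNA SNORD114-28 11.6 RPKM and RNU6ATAC, the U6atac snRNA of the minor spliceosome, 10.97 RPKM in input libraries.

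The 180 genes called in opposite directions in the 2 numbers were 106 that were lower in number 1 and higher in number 2, and 74 the other way. CDK1, the mitotic cyclin-dependent kinase, had mean ratios of -0.58 in number 1 and 0.64 in number 2, and CSF2, a cytokine gene, -0.62 and 1.07. S100A6, a calcium-binding protein gene, had 0.92 and -0.79, and MT2A, a metallothionein gene, 0.69 and -0.78. RN7SKP203, a 7SK pseudogene, had -0.99 and 2.84.

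CBX2, a Polycomb group gene, had 143 RPKM in the asynchronous nascent library numbered 2, against 0.476 to 3.17 RPKM in the 11 other nascent libraries and 0.400 to 1.604 RPKM in the 12 input libraries. Its mean ratio of 1.07 rests on that library. GAS5-AS1, which lies antisense to the snoRNA host gene GAS5, had 0.886 to 9.28 RPKM in nascent and 0.416 to 8.16 RPKM in input libraries, and a mean ratio of 1.07, higher in 11 of 12 pairs; reads of the 2 strands may not be separable here.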
